A study of Mus musculus with 24 samples.

Results

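The 9 genes described here encode regulators that set the identity and the fuel use of the proximal tubule, the segment of the kidney tubule that reabsorbs most of the filtrate: Hnf4a, Ppara, Rxra, Ppargc1a, Esrra, Tfam, Nr1h4, Cebpa and Maf. They were chosen by their role, as a list of names, out of 40750 genes in the deposited table, and all 9 passed the filter of at least 1 RPKM in at least 3 libraries that left 13721 genes to test. RPKM is the number of reads scaled by gene length and by library total, so levels of different genes can be set side by side. Each gene was followed through all 24 libraries of the series. In GENCODE M21 on GRCm38, Hnf4a lies at chr2:163506808-163572910, Ppara at chr15:85734983-85802819, Rxra at chr2:27676440-27762957, Ppargc1a at chr5:51454250-51567726, Esrra at chr19:6910977-6921813, Tfam at chr10:71225464-71238280, Nr1h4 at chr10:89454234-89533585, Cebpa at chr7:35119293-35121928 and Maf at chr8:115682942-115707794.

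The study profiled mouse kidneys during injury and repair with translating ribosome affinity purification (TRAP), in which an antibody against GFP pulls down ribosomes that carry a tagged protein. All groups were heterozygous males of 8 to 10 weeks on a mixed background that carried Kim1-GCE, a tamoxifen-dependent Cre under control of Kim1 (Havcr1), a gene that injured proximal tubule cells switch on, and EGFPL10a, a ribosomal protein joined to GFP. Tamoxifen was given 6 h before and 24 h after surgery. Kidneys were taken at day 2, day 7 or day 14 after both renal pedicles had been clamped for 20 min (ischemia-reperfusion injury, IRI), or after sham surgery without a clamp, for which the labels give no day. Each kidney homogenate gave bound RNA, from the pull-down, and unbound RNA, which stands for the whole kidney, so 12 mice gave 8 groups of 3 libraries. Since the tag depends on Kim1, the cells that carry it and the state of those cells both differ between injured and sham mice, and the 2 cannot be told apart. In both kinds of bulk RNA, fewer cells of a type and less RNA per cell cannot be told apart either.

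HNF4α is a nuclear receptor that maintains the differentiated state of proximal tubule cells. PPARα, which binds DNA as a pair with RXRα, switches on the genes of fatty acid oxidation, the main fuel of this segment. PGC-1α (Ppargc1a) is a coactivator that works through PPARα and ERRα (Esrra) to raise mitochondrial gene expression. TFAM packages mitochondrial DNA and helps to start its transcription. FXR (Nr1h4) is the bile acid receptor and also pairs with RXRα. C/EBPα and MAF are leucine zipper factors of differentiated cells, and MAF is also expressed in macrophages.

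The promoters of the 3 genes that were lower in bound RNA after injury, and of Tfam, which lay on the other side, are shown first. The sequences are from RefSeq on GRCm38.p6, in a table in which 8 of the 9 genes were matched; Maf was not. Printed are the 250 bases before the start, 5′ to 3′ on the strand of the gene, with matches to the motifs searched in capitals. The windows are chr15:85735526-85735775 on the plus strand for Ppara, chr5:51567726-51567975 on the minus strand for Ppargc1a, chr10:89506659-89506908 on the minus strand for Nr1h4 and chr10:71238045-71238294 on the minus strand for Tfam. The Nr1h4 window lies inside the GENCODE gene, whose 5′ end is at 89533585, so it precedes an internal start. The Ppara window also lies inside its gene (5′ end at 85734983), and most of the Tfam window overlaps its gene (5′ end at 71238280).
Ppara: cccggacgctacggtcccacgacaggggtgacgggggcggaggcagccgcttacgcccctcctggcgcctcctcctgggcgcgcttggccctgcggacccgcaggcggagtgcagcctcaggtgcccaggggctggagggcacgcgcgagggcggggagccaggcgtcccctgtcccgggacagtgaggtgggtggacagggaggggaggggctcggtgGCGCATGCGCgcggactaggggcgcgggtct
Ppargc1a: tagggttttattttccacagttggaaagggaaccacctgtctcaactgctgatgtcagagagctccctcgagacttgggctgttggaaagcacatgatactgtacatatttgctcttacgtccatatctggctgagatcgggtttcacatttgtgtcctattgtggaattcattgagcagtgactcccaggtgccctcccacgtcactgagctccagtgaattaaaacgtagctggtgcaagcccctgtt
Nr1h4: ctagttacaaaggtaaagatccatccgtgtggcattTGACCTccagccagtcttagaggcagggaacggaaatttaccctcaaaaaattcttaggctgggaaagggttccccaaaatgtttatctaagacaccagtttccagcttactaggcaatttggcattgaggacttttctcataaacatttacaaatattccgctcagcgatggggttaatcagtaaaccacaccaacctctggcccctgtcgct
Tfam: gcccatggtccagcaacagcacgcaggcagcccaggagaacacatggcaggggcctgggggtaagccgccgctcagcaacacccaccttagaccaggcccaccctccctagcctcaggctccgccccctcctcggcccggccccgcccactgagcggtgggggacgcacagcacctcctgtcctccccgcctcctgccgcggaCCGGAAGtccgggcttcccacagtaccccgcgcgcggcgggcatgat

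The motifs were searched on both strands as plain letters: the nuclear receptor core AGGTCA, the ERR core AAGGTCA, which contains it, the HNF4 core AAGTCCA, the GABP core CCGGAAG, the NRF1 core GCGCATG and the TATA box TATAAA. The Ppara window held the NRF1 core on both strands, overlapping, within 31 to 22 bases before the start, and the Esrra window held it once, 33 to 27 bases before the start. This core occurred in 3.24% of 32851 windows. Such shares are over all windows, not over windows of like base content. G and C made up 76.4% of the Ppara, 68.4% of the Esrra and 72.0% of the Tfam window, against a median of 52.4%. The Nr1h4 window held 1 AGGTCA on the opposite strand, 214 to 209 bases before the start, a motif present in 14.0% of windows. The Tfam window held the GABP core, which is in 6.91% of windows, 47 to 41 bases before the start. None of the 6 motifs was in the Ppargc1a window, nor in either window of Hnf4a. Cebpa had a TATA box 30 to 25 bases before its start, against 12.4% of all windows, and the second start of Rxra had the ERR core (4.08% of windows) and a further AGGTCA. The HNF4 core, in 3.36% of windows, was in none of the members' windows.

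Library depth, inferred from the spacing of low values, had a median of 20.2 and a range of 15.7 to 24.7, in units of 1e6 reads, and a member had at least 268 reads (Cebpa) in its lowest library. A total of 3 libraries stood apart, by the correlation with the mean of the other libraries of their group: bound RNA of sham mouse 3 (r = 0.936, against 0.972 between the others), and bound (0.901 against 0.975) and unbound RNA (0.941 against 0.980) of day 14 mouse 3. The sham library had the highest summed podocyte and principal cell markers of the 24, 458 and 2105 RPKM, and the day 14 mouse had macrophage markers summing to 5242 RPKM in bound and 5156 RPKM in unbound RNA. Bound Havcr1 averaged 125 ± 80.9 RPKM at day 2, 170.4 ± 67.2 at day 7 and 36.4 ± 16.1 at day 14. Its sham bound level was 2.87 ± 2.38 RPKM (SD, n = 3 each, as for the other means). Unbound Havcr1 averaged 125.9 ± 36.1, 72.6 ± 46.0 and 24.4 ± 8.61 RPKM at these times. Sham mice held 4.32, 3.93 and 24.1 RPKM in unbound RNA, against 1.51, 1.49 and 5.61 RPKM in bound RNA. So the gene that drives the tag was lower in bound RNA of each sham mouse. Its bound mean was not above the unbound mean at day 2, but was at day 7 and day 14. At day 14 the fractions overlapped, and mouse 3 held 21.7 RPKM in bound and 34.3 RPKM in unbound RNA.

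**Figure D1:**
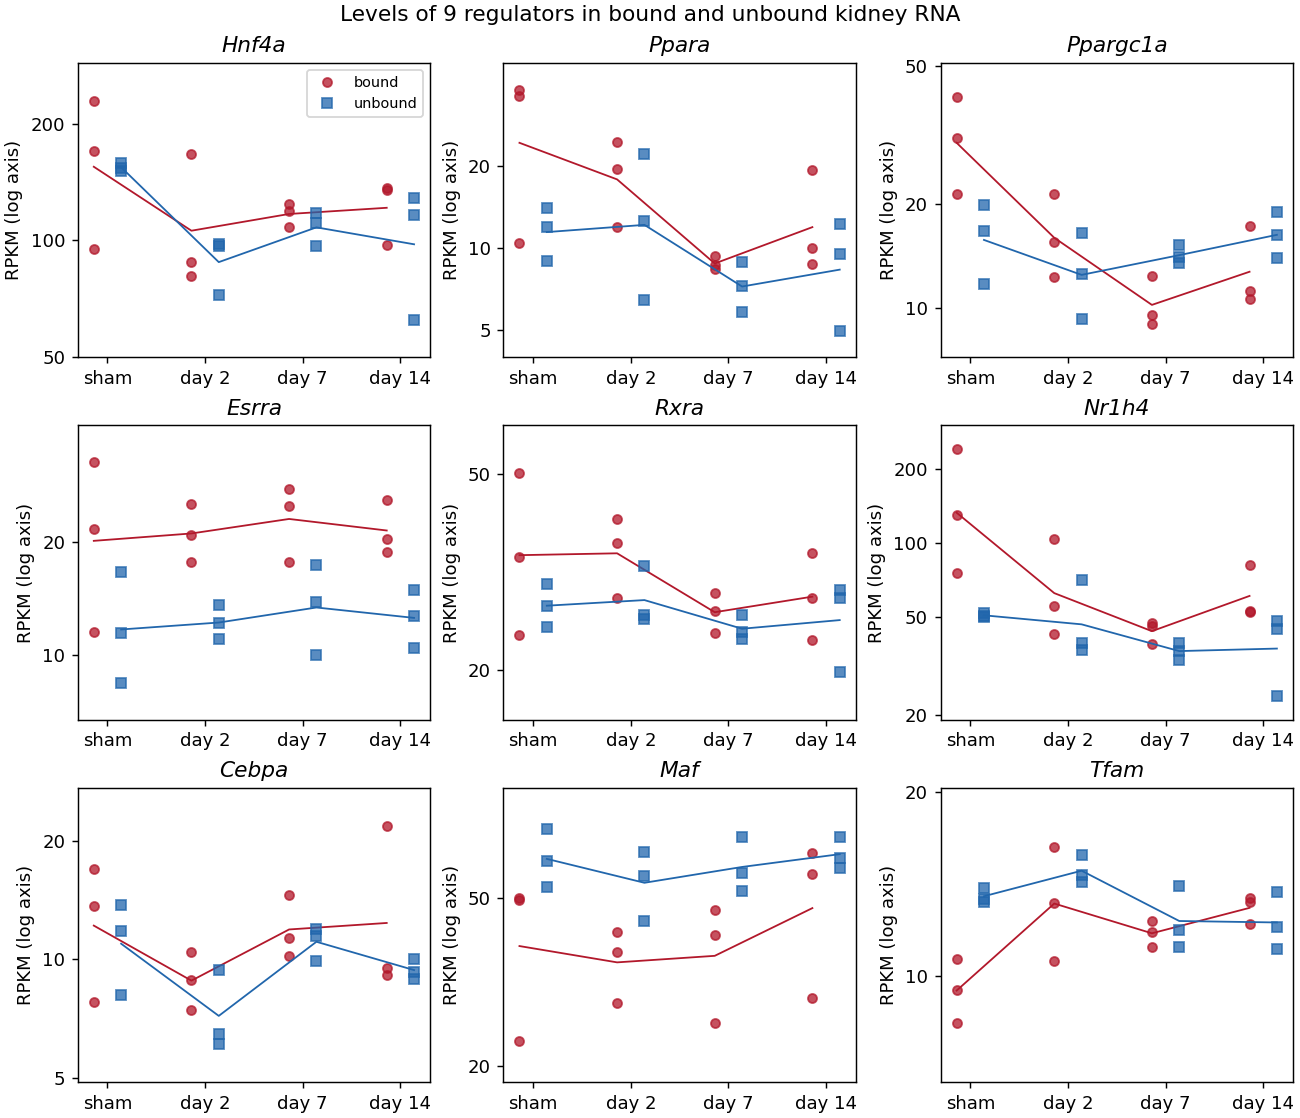
Levels of the 9 regulators in RPKM on log axes, 1 point per library, circles for bound and squares for unbound RNA, with lines through the geometric means of the 3 libraries of a group. Ppargc1a and Nr1h4 in bound RNA fell after sham while the unbound points moved less, and the Esrra circles lay above the squares of the same time at each time after injury.

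In bound RNA, 2 of the 9 regulators were lower than in sham at day 2, 3 at day 7 and 2 at day 14, and none was higher. Ppargc1a and Nr1h4 were lower at all 3 times and Ppara at day 7. A call means an adjusted p below 0.05 in limma, with adjustment over all tested genes. Of those genes, 19.8% were called in bound RNA at day 2, 22.7% at day 7 and 13.3% at day 14, and 6.48%, 7.55% and 4.58% were called lower. In unbound RNA none of the 9 was called at any time, where 14.8% of all tested genes were called at day 2, 1.09% at day 7 and 1.23% at day 14. By the unadjusted p under 0.05, Hnf4a alone stood lower in unbound RNA at day 2 and again at day 14, and no member did at day 7, where 30.2%, 20.6% and 15.3% of all tested genes passed that p at day 2, day 14 and day 7. In bound RNA the median log2 fold change of the 9 was -0.44 at day 2, -0.38 at day 7 and -0.28 at day 14, against 0.16, 0.13 and 0.18 over all tested genes. In unbound RNA it was -0.12, -0.14 and -0.14, against 0.20, 0.18 and 0.22. These shifts of all genes lay between -0.04 and 0.02 once libraries were rescaled by median ratios, and the members called kept their direction. Without the 3 libraries that stood apart, 6 members were called in bound RNA at day 2 (34.1% of all genes), 5 at day 7 (35.9%) and 3 at day 14 (26.8%); Tfam, at day 2, was the 1 member called higher. Leaving out the bound library of sham mouse 3 alone, which changed several calls described below, 24.6%, 27.9% and 18.3% of all genes were called at these times, 30.4% between the fractions of sham kidneys, and 1.43% and 0.989% in the day 7 and day 14 interactions, which compare the change of bound with that of unbound RNA.

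**Figure D2:**
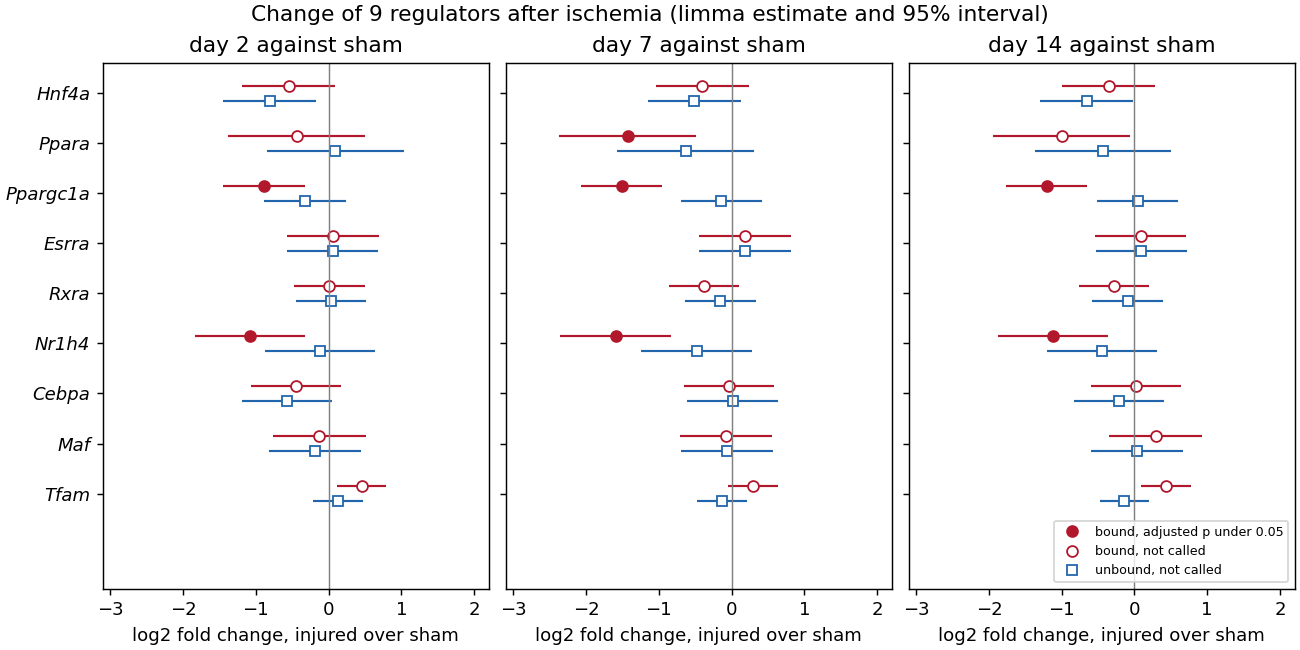
Log2 fold change of each regulator, injured over sham, with the 95% interval of the limma estimate, for bound RNA (circles, upper of each pair) and unbound RNA (squares, lower). Filled symbols mark an adjusted p under 0.05: Ppargc1a and Nr1h4 at each time and Ppara at day 7, in bound RNA.

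Ppargc1a, the PGC-1α coactivator, showed the change with the smallest p of the 9. Its bound level was 9.01, 12.4 and 9.54 RPKM in the 3 mice at day 7, against 30.9, 40.7 and 21.4 RPKM in sham mice. Every day 7 library lay below every sham library, and the fold was 2.85 times lower (log2 -1.51, SE 0.27, adjusted p = 0.000852, limma). At day 2 the bound libraries held 21.2, 15.5 and 12.3 RPKM, just under the lowest sham value (log2 -0.89, SE 0.27, adjusted p = 0.0239). At day 14 they held 10.6, 11.2 and 17.3 RPKM (log2 -1.20, SE 0.27, adjusted p = 0.00782), again with no overlap. Groups that did not overlap, with the injured one lower, occurred in 8.93% of all tested genes at day 2, 14.4% at day 7 and 7.12% at day 14. The calls at day 7 and day 14 held with any 1 library left out, with adjusted p up to 0.00747 and 0.0450, and the day 14 call was lost when bound libraries alone were fitted (adjusted p = 0.0600). At day 2 the call was lost without sham mouse 1 (adjusted p = 0.0690), sham mouse 2 (0.122), day 2 mouse 2 (0.0794) or day 2 mouse 3 (0.126), and in the fit of bound libraries alone (0.0831).

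In unbound RNA Ppargc1a was not called at any time. It held 12.6, 9.32 and 16.5 RPKM at day 2, 14.0, 15.2 and 13.5 at day 7 and 19.0, 16.3 and 13.9 at day 14, against 11.7, 19.8 and 16.7 in sham mice, and the groups overlapped at each time. The interaction of fraction and injury, which tests the difference between the bound and the unbound change, was -1.37 on the log2 scale at day 7 (95% interval -2.16 to -0.58, adjusted p = 0.128) and -1.25 at day 14 (-2.04 to -0.46, adjusted p = 0.148). With each mouse as a block, since bound and unbound RNA came from the same homogenate, the day 7 value passed at an adjusted p of 0.0472 and the day 14 value was at 0.0560. No member was called in an interaction without the block, at day 2, day 7 or day 14. Over all tested genes 0%, 0.146% and 0.197% were. At an unadjusted p under 0.05 there were 758, 2320 and 2267 genes (5.52%, 16.9% and 16.5%), shares near those of the members. Among them were Ppargc1a and Nr1h4 at day 7, Ppargc1a and Tfam at day 14 and no member at day 2. With mouse blocks the background was 5.26% at day 7 and 6.28% at day 14. Leaving out the bound library of sham mouse 3 also gave a call for Ppargc1a at day 7 (adjusted p = 0.0456), and leaving out that of day 14 mouse 3 gave one at day 14 (0.0202). Without the 3 libraries that stood apart, Ppargc1a and Nr1h4 were called at day 7, among 10.5% of all genes, and Ppargc1a at day 14, among 12.6%.

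Esrra encodes ERRα, the receptor through which PGC-1α drives many mitochondrial genes, and it was not called at any time. Bound RNA held 25.2, 20.8 and 17.7 RPKM at day 2, 24.9, 27.5 and 17.7 at day 7 and 18.8, 25.8 and 20.3 at day 14, against 21.6, 32.5 and 11.6 RPKM in sham mice. The injured groups all lay within the sham range. The log2 change against sham was 0.06, 0.19 and 0.09 at the 3 times, with 95% intervals that reached from -0.57 to 0.81, so changes of up to that size could not be told from none.

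Of 24 genes under control of PGC-1α and ERRα, a list of respiratory chain, Krebs cycle and related genes, 16 were lower and none higher in bound RNA at day 2, 12 were lower and 2 higher at day 7, and 11 were lower and 1 higher at day 14. The median log2 change of the list was -0.94, -0.67 and -0.64. Sdha, a subunit of succinate dehydrogenase, averaged 189 ± 8.90 RPKM at day 7 in bound RNA and 887 ± 107 RPKM in sham (log2 -2.22, SE 0.38, adjusted p = 0.000586). Ndufs1 and Ndufv1 of complex I fell by 1.77 and 1.33 on the log2 scale at day 7, and Suclg1, of the Krebs cycle, fell by 2.15 at day 2. Ppargc1b, the sister coactivator of Ppargc1a, was lower at day 2, day 7 and day 14 (log2 -1.08, -1.16 and -1.12), as was Esrrb, a sister of Esrra (-1.39, -1.48 and -1.22). In unbound RNA at day 2, 5 of the 24 target genes were lower and none higher, Sirt3, a mitochondrial deacetylase, among them (log2 -1.91), and none was called at day 7 or day 14. Without the 3 libraries that stood apart, the genes called higher in bound RNA were 3, 4 and 5 of the 24 at day 2, day 7 and day 14, and those called lower 16, 14 and 12. A single library moved the count of lower genes: it was 10 at day 2 without day 2 mouse 2, 7 at day 7 without sham mouse 1, and 5, 7 and 6 at day 14 without sham mouse 1, sham mouse 2 and day 14 mouse 1. In unbound RNA at day 2 it was 1 to 3 without any of 5 of the 6 libraries, all but day 2 mouse 1.

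Tfam in bound RNA lay above sham, without a call. Its libraries held 10.6, 16.2 and 13.2 RPKM at day 2, 12.3, 11.8 and 11.1 at day 7 and 12.2, 13.4 and 13.2 at day 14, against 8.38, 9.47 and 10.7 RPKM in sham mice. The day 7 and day 14 groups lay wholly above sham, as did 24.9% and 15.5% of all tested genes. The log2 change was 0.45, 0.30 and 0.43, with adjusted p of 0.0570, 0.202 and 0.0853, so none was called. The day 2 change was called without sham mouse 3 (adjusted p = 0.0319), day 2 mouse 1 (0.00924) or both day 14 libraries of mouse 3 (0.0451), and also with no filter on low values (0.0442) or over genes with a mean of at least 5 RPKM (0.0374). That of day 14 was called without sham mouse 3 (0.0481). Unbound Tfam stayed between 11.1 and 15.7 RPKM in all 12 mice, without a call. Its day 2 libraries, at 14.2 to 15.7 RPKM, lay wholly above sham, at 13.2 to 13.9 RPKM, as did 31.2% of tested genes.

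Among 17 further genes that maintain or transcribe mitochondrial DNA, bound RNA had 4 lower and none higher at day 2, 3 lower and 1 higher at day 7 and 2 lower at day 14. Tefm, the mitochondrial transcription elongation factor, averaged 11.6 ± 3.08 RPKM at day 2 and 24.4 ± 6.24 RPKM in sham (log2 -1.04, adjusted p = 0.00380). Polrmt, the mitochondrial RNA polymerase, had a log2 change of -1.02 at day 2 and -1.18 at day 14, both called. The lower genes numbered 2 at day 2 without sham mouse 1 or 2 or day 2 mouse 2 or 3, 1 at day 7 without sham mouse 1 or day 7 mouse 2 or 3, and 0 at day 14 without sham mouse 1 or 2 or day 14 mouse 1. The transcripts made from mitochondrial DNA itself, of which 7 were tested, had no call against sham in either fraction. They were lower in bound than in unbound RNA of sham mice in 7 of 7 cases, with a median log2 of -2.26. After injury the sum over 13 such genes was also lower in bound RNA. Bound libraries summed to 1865 to 3207 RPKM at day 2, 967 to 2063 at day 7 and 1914 to 3148 at day 14. Unbound libraries summed to 5993 to 11623, 11703 to 11980 and 13950 to 14685 RPKM. How these transcripts came into bound RNA was not tested. Their bound level, and its lack of a call, is therefore not read as that of the tagged cells.

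Nr1h4, the FXR gene, had the widest range of the 9, with a 10.1-fold span between its lowest and highest library. Bound RNA held 103.6, 42.6 and 55.6 RPKM at day 2, 46.0, 47.2 and 38.7 at day 7 and 52.9, 81.7 and 52.5 at day 14, against 241, 129.8 and 75.3 RPKM in sham mice. The day 7 libraries were all below sham, while at day 2 and day 14 the highest injured library exceeded sham mouse 3. The level was 2.12 times lower at day 2 (log2 -1.08, SE 0.36, adjusted p = 0.0408), 3.02 times lower at day 7 (log2 -1.59, SE 0.36, adjusted p = 0.00444) and 2.17 times lower at day 14 (log2 -1.12, SE 0.36, adjusted p = 0.0464). The day 7 call held without any 1 library (adjusted p up to 0.0354). The day 2 call was lost without sham mouse 1 (log2 -0.65, adjusted p = 0.250), sham mouse 2 (0.0833), day 2 mouse 2 (0.206) or day 2 mouse 3 (0.128), and the day 14 call without sham mouse 1 (log2 -0.69, adjusted p = 0.241), sham mouse 2 (0.0968), day 14 mouse 1 (0.131) or day 14 mouse 3 (0.0900). Both were also lost with no filter on low values (0.0836 at day 2, 0.0956 at day 14) and with bound libraries alone (0.112 and 0.142), and that of day 14 with no variance trend (0.0532).

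Unbound Nr1h4 held 39.1, 36.8 and 70.9 RPKM at day 2, 39.3, 36.5 and 33.5 at day 7 and 44.6, 48.4 and 23.9 at day 14, against 50.1, 50.6 and 51.8 RPKM in sham mice. The day 7 and day 14 libraries were all below sham, as in 7.63% and 7.17% of tested genes, yet the log2 changes of -0.48 and -0.44 had adjusted p of 0.556 and 0.494. The interaction at day 7 was -1.11 on the log2 scale (95% interval -2.19 to -0.04, adjusted p = 0.280, and 0.128 with mouse blocks).

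Genes regulated by FXR, a list not split by whether FXR raises or lowers them, did not share 1 direction. Of 9 tested, 3 were higher and 2 lower in bound RNA at day 2, 3 higher and 2 lower at day 7, and 1 higher and 2 lower at day 14. The day 14 counts became 3 higher without day 14 mouse 3, and 0 lower without sham mouse 1 or 2 or day 14 mouse 1 or 2. Nr0b2, the corepressor SHP that FXR induces, averaged 3.05 ± 1.47 RPKM at day 2 and 11.4 ± 4.82 RPKM in sham (log2 -1.72, adjusted p = 0.00365), and fell by 1.56 at day 7 and by 1.47 at day 14. Pck1, an enzyme of glucose synthesis, fell by 2.13 at day 7. Slc51b, a subunit of the organic solute transporter that exports bile acids, was at 88.7 ± 5.41 RPKM at day 7 and 26.3 ± 2.56 RPKM in sham bound RNA (log2 1.74, SE 0.27, adjusted p = 0.000225). The bile acid importer Slc10a2 was also higher at day 7 (log2 1.38), and the efflux pumps Abcc2 and Abcc4 were higher at day 2 (1.54 and 1.17).

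Ppara, the fatty acid receptor, was lower in bound RNA at day 7. It held 9.30, 8.65 and 8.35 RPKM then, against 36.1, 38.0 and 10.4 RPKM in sham mice, of which the last was the library that stood apart. The day 7 libraries lay close together and below all sham libraries (2.68 times lower, log2 -1.42, SE 0.45, adjusted p = 0.0275). At day 2 it held 24.4, 11.9 and 19.4 RPKM, within the sham range (log2 -0.44, adjusted p = 0.529), and at day 14 it held 10.0, 19.3 and 8.72 RPKM (log2 -1.0, adjusted p = 0.139). The day 7 call was lost without sham mouse 1 (adjusted p = 0.128), sham mouse 2 (0.136), or day 7 mouse 1 (0.0582), mouse 2 (0.0697) or mouse 3 (0.0768), with no filter on low values (0.0637) and with bound libraries alone (0.0622). Without sham mouse 3 it became stronger (log2 -2.02, adjusted p = 0.00189), and the day 14 change was then called (log2 -1.60, adjusted p = 0.0143). With all 3 libraries that stood apart left out, the day 2 change was called too (log2 -1.03, adjusted p = 0.0434), among 34.1% of all genes. Unbound Ppara ranged from 4.97 to 22.1 RPKM over the 12 mice, with no call at any time. At day 7 it held 8.89, 7.26 and 5.81 RPKM, against 8.93, 11.9 and 14.0 RPKM in sham mice. These day 7 libraries were all below sham, as in 7.63% of tested genes.

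Rxra, whose product pairs with PPARα and FXR, was steadier. Bound RNA held 40.5, 36.2 and 28.0 RPKM at day 2, 23.8, 28.6 and 26.4 at day 7 and 23.0, 34.6 and 28.0 at day 14, against 33.9, 50.1 and 23.5 RPKM in sham mice. The groups overlapped at each time, and the day 7 log2 change was -0.38 (95% interval -0.86 to 0.10, adjusted p = 0.250). It was called without sham mouse 3 (log2 -0.65, adjusted p = 0.0370).

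Among 28 genes that PPARα switches on, 7 were lower and 2 higher in bound RNA at day 2, 15 lower and 1 higher at day 7, and 8 lower and none higher at day 14. Acadm, which oxidises medium-chain fatty acids, averaged 141 ± 88.1 RPKM at day 2 and 705 ± 144 RPKM in sham (log2 -2.46), and was still lower at day 7 (-1.78) and day 14 (-1.45). Hadha, Hadhb and Acaa2, which carry out later steps of mitochondrial fatty acid oxidation, fell by 1.70, 1.58 and 1.84 at day 7. The 2 genes that rose at day 2 handle lipid storage and transport: Plin2, a coat protein of lipid droplets (log2 2.61), and Fabp1, a fatty acid binding protein (log2 4.13). Both also rose in unbound RNA at day 2 (2.34 and 3.58), where Acadm and Cyp4b1 were lower. None of the list was called in unbound RNA at day 14, where 1.23% of all tested genes were. The list summed in unbound RNA to 2479 to 4829 RPKM at day 2, 2039 to 2733 at day 7 and 1524 to 2738 at day 14. Sham unbound libraries summed to 3640 to 4018 RPKM, wholly above those of day 7 and day 14. The lower genes in bound RNA numbered 4, 4 and 3 at day 2 without sham mouse 1, day 2 mouse 2 and day 2 mouse 3, and without sham mouse 1 they numbered 9 at day 7 and 5 at day 14.

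**Figure D3:**
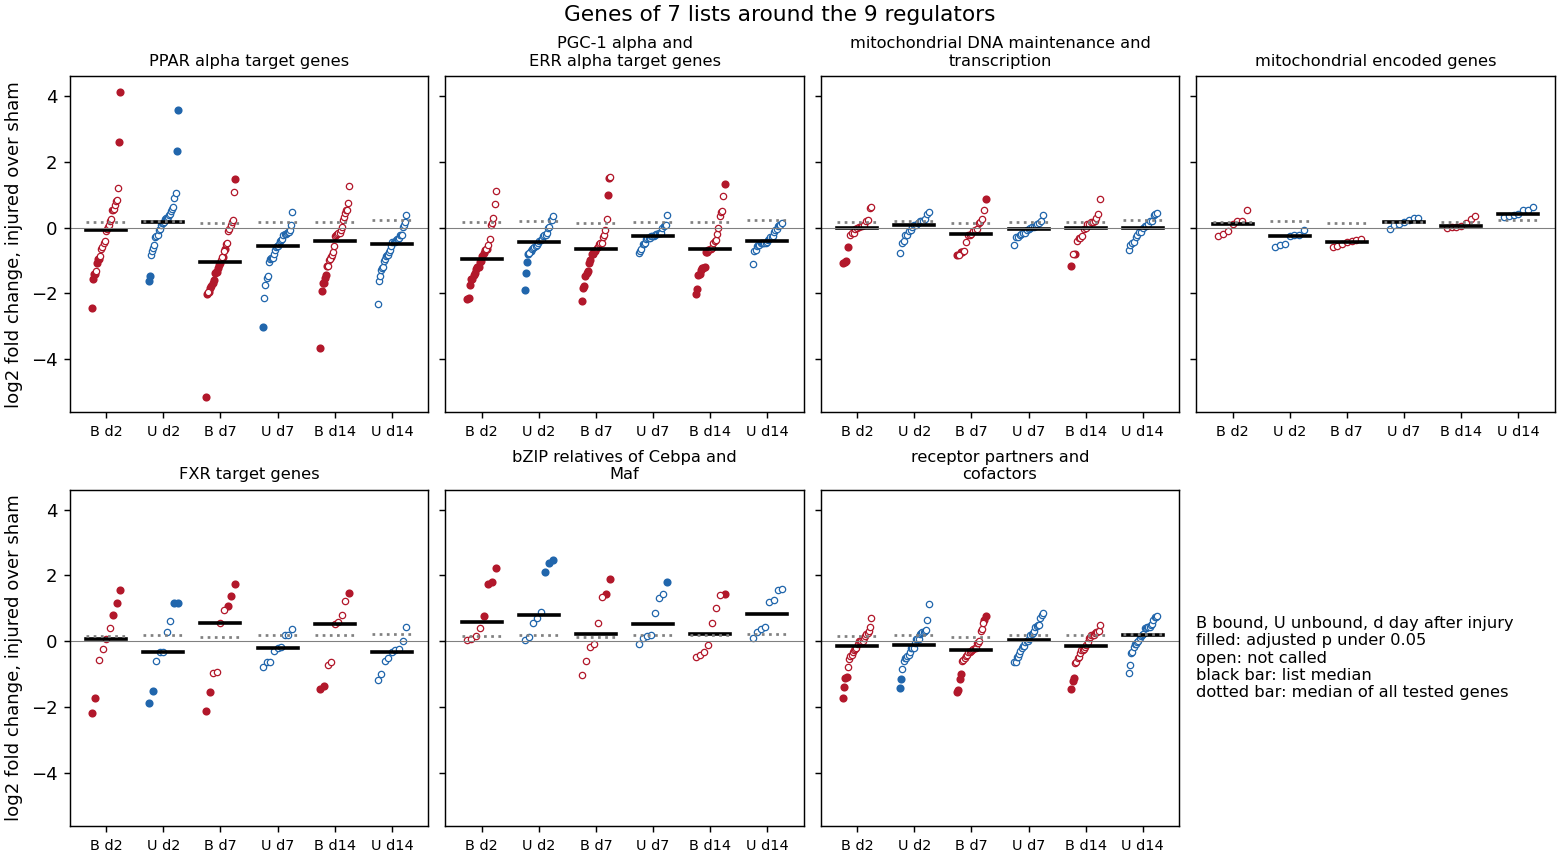
Log2 fold change, injured over sham, of each tested gene of 7 lists around the regulators, for bound (B) and unbound (U) RNA at day 2, day 7 and day 14. Filled points have an adjusted p under 0.05, the black bar is the list median and the dotted bar the median of all tested genes; in bound RNA at day 7 the PPARα target genes had a median of -1.04.

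Hnf4a was the most abundant of the 9, with a mean of 121 RPKM over all libraries, above 95.7% of tested genes. Unbound RNA held 97.5, 72.0 and 96.4 RPKM at day 2, 110.6, 118 and 96.6 at day 7 and 128, 116 and 62.4 at day 14, against 158, 151 and 154 RPKM in sham mice. Every injured library lay below every sham library, at each of the 3 times. That pattern occurred in 13.3% of tested genes at day 2, 7.63% at day 7 and 7.17% at day 14. The log2 change of -0.81 at day 2 (95% interval -1.45 to -0.17) had an adjusted p of 0.0788, and those of -0.51 at day 7 and -0.66 at day 14 had 0.443 and 0.229. Without both day 14 libraries of mouse 3 and the bound library of sham mouse 3, which stood apart, the day 2 change was called (adjusted p = 0.0110), among 27% of all genes.

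In bound RNA Hnf4a overlapped between groups throughout. It held 167, 87.7 and 81.1 RPKM at day 2, 124, 119 and 108 at day 7 and 135, 136 and 96.9 at day 14, against 171, 229 and 94.9 RPKM in sham mice, and was not called. Sham mouse 3 again was the lowest sham library. Leaving it out gave a call at day 2 (log2 -0.90, adjusted p = 0.0338), as did leaving out day 2 mouse 1 (log2 -0.87, adjusted p = 0.0365). Without all 3 libraries that stood apart, Hnf4a was called lower at day 2 (adjusted p = 0.00954) and day 7 (log2 -0.76, 0.0223). The shares of all genes were then 34.1% and 35.9%.

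Genes that carry out the work of the differentiated proximal tubule, 36 in all, had 10 lower and 1 higher in bound RNA at day 2, 5 lower and 6 higher at day 7, and 2 lower and 2 higher at day 14. Their medians were -0.55, -0.02 and 0.21 on the log2 scale. In unbound RNA 13 were lower and none higher at day 2, and none was called at day 7 or day 14. Hpd, an enzyme of tyrosine breakdown, averaged 2.76 ± 2.12 RPKM in bound RNA at day 2 and 61.3 ± 43.4 RPKM in sham (log2 -4.30), and Slc5a1, a sodium-glucose transporter, was higher at all 3 times (1.24, 1.41 and 1.26). Of 10 other transcription factors of the tubule, none was called in bound RNA at day 2. At day 7, Tfec (log2 2.63) and Cux1 (0.74) were higher and Klf15 lower (-1.33). Pax8, which specifies tubule cells, was lower in unbound RNA at day 2 (-0.97). Without day 14 mouse 3 in bound RNA, 9 of the 36 differentiation genes were called higher at day 14. The 13 lower genes in unbound RNA at day 2 became 8 without sham mouse 2 and 5 without day 2 mouse 2, and the lower genes in bound RNA at day 7 became 3 without sham mouse 2 or day 7 mouse 3, while the higher ones became 3 without sham mouse 1, sham mouse 3 or day 7 mouse 1.

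Cebpa was the least abundant of the 9, with a mean of 10.8 RPKM. Bound RNA held 8.86, 7.46 and 10.4 RPKM at day 2, 10.2, 14.6 and 11.4 at day 7 and 9.53, 9.13 and 21.8 at day 14, against 13.7, 17.0 and 7.80 RPKM in sham mice. Unbound RNA held 6.12, 6.47 and 9.41 RPKM at day 2, against 11.8, 13.7 and 8.15 RPKM in sham. The groups overlapped in both fractions, and the day 2 log2 changes of -0.44 and -0.58 had adjusted p of 0.311 and 0.199. Without the 3 libraries that stood apart, Cebpa was called lower at day 2 in both fractions. The bound change was then -0.75 (adjusted p = 0.0186, among 34.1% of all genes) and the unbound change -0.58 (0.0464, among 27%). Maf in bound RNA ranged from 23.0 RPKM in a sham library to 63.8 RPKM at day 14, with all groups overlapping and log2 changes of -0.13, -0.08 and 0.29 against sham. Of 8 tested relatives among the leucine zipper factors, 4 were higher in bound RNA at day 2 and none lower. Cebpb and Cebpd, of the C/EBP family, and Maff, a small MAF, all induced in acute stress, rose by 1.80, 2.23 and 1.73 on the log2 scale, and in unbound RNA by 2.10, 2.48 and 2.37. At day 7, Cebpb (1.42) and Maff (1.90) were still higher in bound RNA.

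Bound and unbound RNA of the same mouse were compared next. In sham kidneys Ppargc1a and Nr1h4 were higher in bound RNA and Tfam was lower, 3 of 9 members, where 27.6% of all tested genes were called. Nr1h4 averaged 149 ± 84.6 RPKM in bound and 50.9 ± 0.889 RPKM in unbound RNA (2.60-fold, log2 1.38, SE 0.36, adjusted p = 0.00818). Ppargc1a averaged 31.0 ± 9.67 RPKM in bound and 16.1 ± 4.08 RPKM in unbound RNA (log2 0.91, SE 0.27, adjusted p = 0.0156). Tfam averaged 9.51 ± 1.14 RPKM in bound and 13.5 ± 0.381 RPKM in unbound RNA (log2 -0.49, SE 0.16, adjusted p = 0.0312). With mouse blocks 6 members were called, against 39.3% of all genes: Ppara (log2 1.06, adjusted p = 0.0281) and Esrra (0.76, 0.0134) were then higher in bound RNA, and Maf lower (-0.68, 0.0470). The Ppargc1a call was lost without bound sham mouse 2 (adjusted p = 0.0963) or unbound sham mouse 1 (0.0942), and that of Nr1h4 without bound sham mouse 1 (0.0642). That of Tfam was lost without any of 5 of the 6 libraries (adjusted p of 0.0663 to 0.118), all but bound sham mouse 3. Without bound sham mouse 3, Ppara (log2 1.66, adjusted p = 0.00593), Esrra (1.14, 0.00484) and Rxra (0.60, 0.0469) were called. Without all 3 libraries that stood apart 6 members were, among 37.5% of all genes.

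After injury none of the 9 was called between the fractions, where 1.68% of tested genes were at day 2, 2.35% at day 7 and 0.816% at day 14. At an unadjusted p under 0.05, Esrra differed at each time and Maf at day 7, where 17.7%, 16.4% and 10.5% of all genes did at the 3 times, a share near that of the members. Bound over unbound log2 for Ppargc1a was 0.34, -0.46 and -0.34 at day 2, day 7 and day 14, and for Nr1h4 it was 0.42, 0.27 and 0.70. At day 7 bound Ppargc1a, at 9.01 to 12.4 RPKM, lay wholly below unbound Ppargc1a, at 13.5 to 15.2 RPKM, as did 19.5% of tested genes.

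Esrra and Maf differed between the fractions in the same direction in every mouse. Esrra was higher in bound RNA in 12 of 12 mice, by 1.30 to 2.84 times, with log2 means of 0.76 in sham kidneys and 0.76, 0.76 and 0.74 at the 3 times after injury. Of all tested genes, 7.14% were higher in bound RNA in all 12. With mouse blocks Esrra was called at day 2 (adjusted p = 0.0429) and day 7 (0.0390), against 9.50% and 11.4% of all genes, and it missed the threshold at day 14 (0.0805), where 2.62% were called. Maf was lower in bound RNA in 12 of 12 mice, at 0.434 to 0.967 of the unbound level, as were 5.31% of tested genes. Nr1h4 was higher in bound RNA in 11 of 12 mice, Hnf4a and Ppara in 10, Cebpa in 9, Rxra in 8, Ppargc1a in 6 and Tfam in 4.

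**Figure D4:**
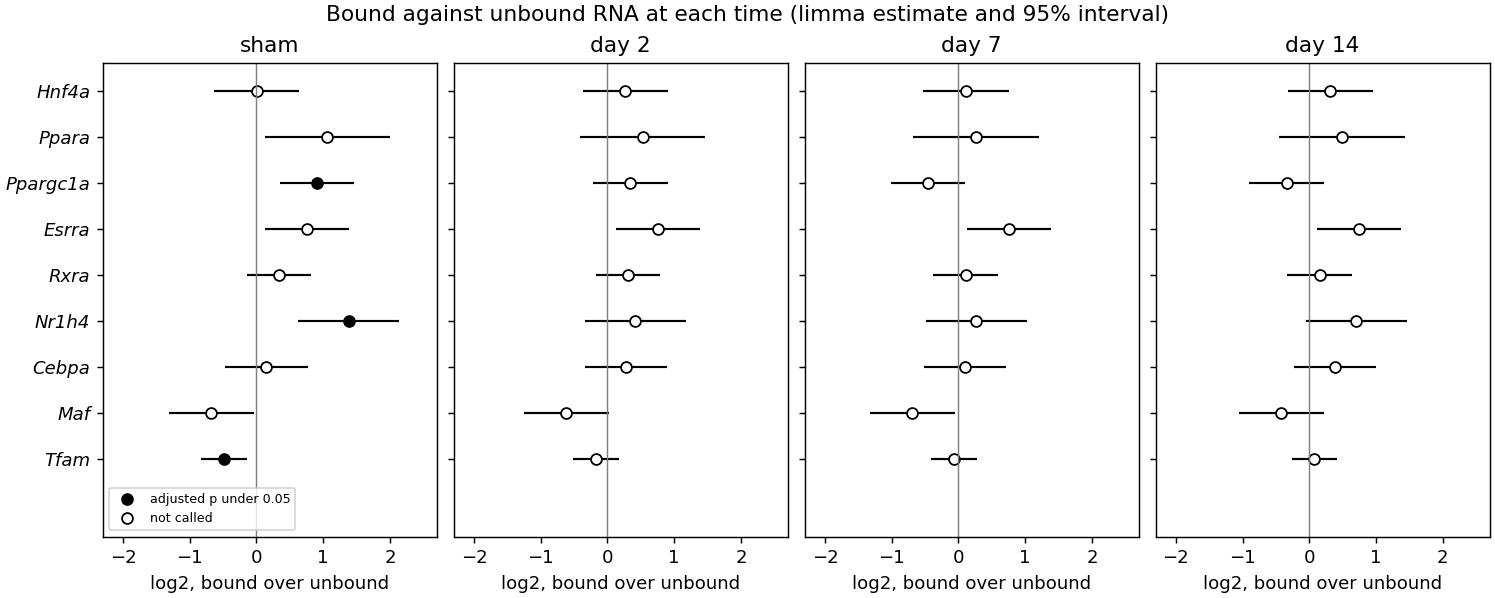
Log2 ratio of bound over unbound RNA for each regulator in sham kidneys and at day 2, day 7 and day 14, with the 95% interval of the limma estimate without mouse blocks. Filled points have an adjusted p under 0.05, and the Esrra points stand between 0.74 and 0.76 at all 4 times.

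Markers of other cells also differed between the groups. In sham kidneys, 8 of 8 podocyte markers (median log2 2.33) and 6 of 9 principal cell markers (1.57) were higher in bound than in unbound RNA, and 21 of 36 differentiation genes of the proximal tubule were lower (-1.17). The podocyte sum was 147 to 458 RPKM in sham bound and 27.6 to 42.3 RPKM in sham unbound libraries. In bound RNA at day 7, when Ppara, Ppargc1a and Nr1h4 were all lower than in sham, 6 of 8 podocyte and 8 of 9 principal cell markers were also lower, and 8 of 14 macrophage markers were higher. The podocyte sum was then 52.1 to 84.0 RPKM and the principal cell sum 140 to 239 RPKM, against 264 to 2105 RPKM in sham bound libraries. Macrophage markers summed to 1016 to 1655 RPKM at day 7 and 182 to 332 RPKM in sham. Thick ascending limb markers had 3 of 8 lower and 1 higher, distal convoluted tubule markers 3 of 8 lower and endothelial markers 3 of 10 lower, and 2 of 11 stromal markers were higher. At day 2, when Ppargc1a and Nr1h4 were lower, 4 of 4 tested neutrophil, 4 of 11 stromal and 3 of 14 macrophage markers were higher in bound RNA, while 1 of 9 principal cell, 4 of 8 distal convoluted tubule, 2 of 8 thick ascending limb and none of 8 podocyte markers were lower. Stromal markers then summed to 134 to 660.0 RPKM and neutrophil markers to 18.6 to 103.0 RPKM, against 42.9 to 47.0 and 1.94 to 12.2 RPKM in sham bound libraries. At day 14, 4 of 11 stromal markers, summing to 54.4 to 666 RPKM, and 7 of 14 macrophage markers were higher, and 1 of 8 podocyte and 2 of 9 principal cell markers were lower. Of the defining markers, Avpr2 of principal cells, Ly6g and Mpo of neutrophils, and Cd79a and Ms4a1 of lymphocytes were below 1 RPKM in all libraries. Among bound libraries, 1829 of 13721 tested genes were called higher than sham at day 2. At day 7 the number was 2080, and at day 14 it was 1195. Those called lower were 6.48%, 7.55% and 4.58% of tested genes. Small counts, such as 3 of 14 macrophage or 1 of 9 principal cell markers at day 2, therefore do not by themselves mark out a list. Whether any list was called more often than all genes was not tested. The part of these cells in the changes of the regulators was not tested. The library with the most podocyte and principal cell RNA, sham mouse 3, had the lowest sham bound levels of 8 of the 9 regulators and the highest of Tfam. Without it the day 7 changes were -1.75 for Ppargc1a, -2.02 for Ppara and -2.00 for Nr1h4 on the log2 scale.

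**Figure D5:**
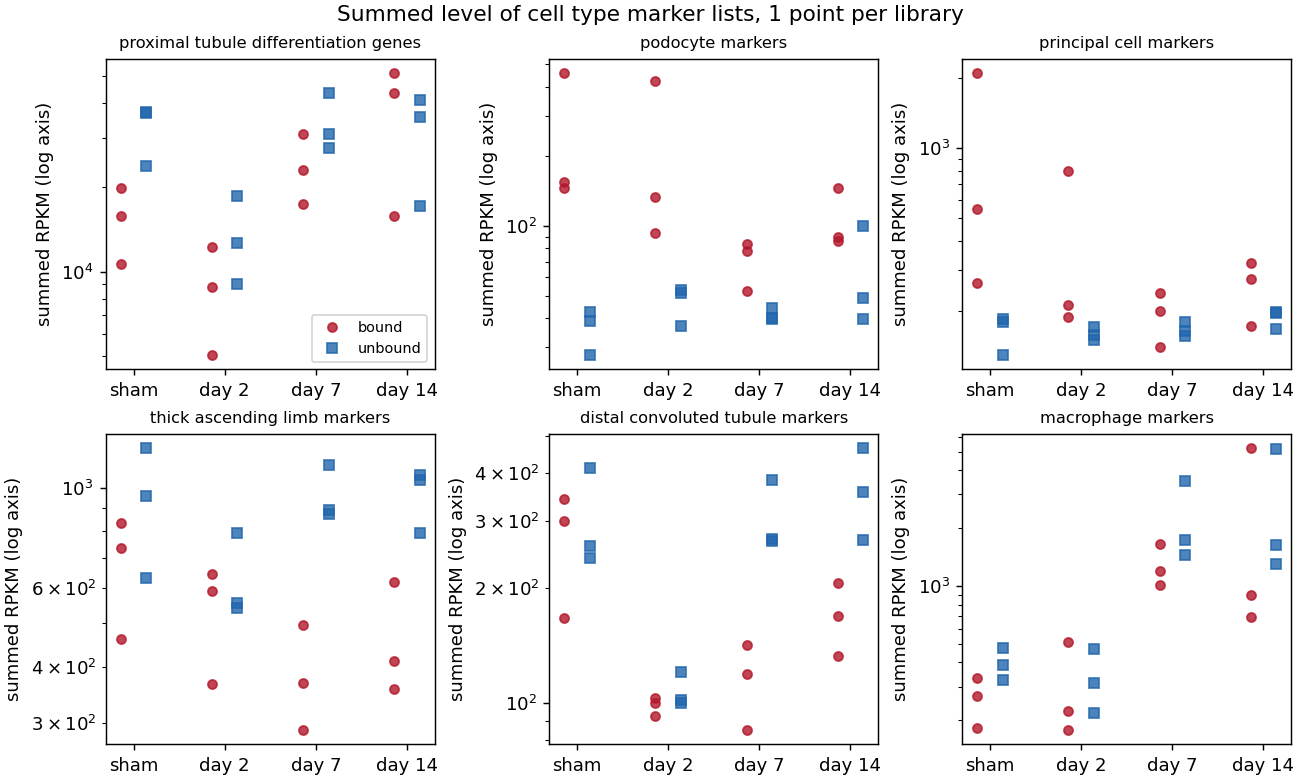
Summed RPKM of 6 marker lists on log axes, 1 point per library, circles for bound and squares for unbound RNA. Podocyte markers summed to 147 to 458 RPKM in sham bound and 27.6 to 42.3 RPKM in sham unbound libraries, and macrophage markers were higher at day 7 and day 14 than in sham in both fractions.

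Between successive times no member was called in either fraction. In bound RNA 7.09% of tested genes were called at day 7 against day 2 and 0% at day 14 against day 7, with 868 at an unadjusted p under 0.05. The shares in unbound RNA were 3.51% and 0.00729%. At an unadjusted p under 0.05, Ppara and Ppargc1a were lower in bound RNA at day 7 than at day 2 (log2 -0.99 and -0.62, adjusted p of 0.2 and 0.174), as 22.4% of all genes differed, a share near that of the members, and no member differed at day 14 against day 7. Bound Nr1h4 at day 14, 52.5 to 81.7 RPKM, lay wholly above day 7, 38.7 to 47.2 RPKM, as did 5.39% of tested genes, but its log2 change of 0.47 had an adjusted p of 0.851.

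When the 8 groups were ranked by their mean, neighbours in the order mostly overlapped. For Ppara, Rxra, Cebpa and Maf, all 7 neighbouring pairs overlapped. For Hnf4a, Ppargc1a, Esrra and Nr1h4 it was 6 of 7, and for Tfam 5 of 7. The highest group was sham bound for Ppara (28.2 ± 15.4 RPKM), Ppargc1a, Nr1h4, Hnf4a (165 ± 67.5) and Rxra (35.8 ± 13.4), whereas it was day 7 bound for Esrra (23.4 ± 5.08), day 14 bound for Cebpa (13.5 ± 7.19), day 14 unbound for Maf (63.5 ± 5.58) and day 2 unbound for Tfam (14.9 ± 0.778). Maf, at 50.5 RPKM, and Nr1h4, at 62.2 RPKM, followed Hnf4a in mean level over all libraries, and the other 6 averaged 10.8 to 28.8 RPKM.

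Over the 24 libraries, Ppara and Nr1h4 followed each other most closely of the 36 pairs of members (Pearson r of log2 values 0.89, and 0.87 and 0.90 within bound and unbound RNA). Libraries of a mouse share its kidney and libraries of a fraction its pull-down, so these values are descriptions. Tfam ran against Nr1h4 in bound RNA (r = -0.76) and with it in unbound RNA (0.51). Among 7003 tested genes with a mean of at least 5 RPKM, the 3 whose levels were most like those of Nr1h4 were Shmt2, Selenbp1 and Aldh2 (r = 0.93, 0.93 and 0.91). For Hnf4a they were Aldh5a1, Fah and Suclg1 (0.90, 0.90 and 0.88), enzymes of mitochondrial or amino acid metabolism, and for Ppargc1a they were Acss1, Spire1 and Rora (0.89, 0.88 and 0.84). Ppara was most like Pim3, Cpt2 and Epb41 (0.84, 0.82 and 0.82), of which Cpt2 completes the entry of fatty acids into the mitochondrial matrix. Spire1 followed Ppargc1a in bound RNA (0.97) but not in unbound RNA (-0.02). For Esrra the nearest were Fem1a, Cdc42bpg and Mllt6 (0.88, 0.87 and 0.87), for Rxra Icmt, Uhmk1 and Cmtm4 (0.87, 0.85 and 0.85), for Cebpa Plekhm2, Pla2g6 and Kbtbd11 (0.86, 0.78 and 0.75), for Maf Mcur1, Slc12a7 and Agtr1a (0.82, 0.81 and 0.81) and for Tfam Arpc5l, Ccdc58 and Tomm5 (0.84, 0.82 and 0.81).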

How the data were processed

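RPKM of 40750 genes in 24 libraries were deposited by the authors as 1 table. Per the submitters' processing notes, STAR 2.0.4b, featureCounts 1.4.5 of Subread and edgeR were used; the genome build was not given in the sources used here. Repeated lines (1081, identical) were dropped. Depth was inferred from the spacing of low RPKM values with exon lengths of GENCODE M21: 73.7% to 78.1% of values up to 50 reads came out whole within 0.02 reads, where 4% would by chance.

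The tests used limma 3.58.1 under R 4.3.3 on log2(RPKM + 0.5). A single model held the means of the 8 groups and allowed the variance to follow the level, over 13721 genes that reached 1 RPKM in 3 or more libraries. P-values were adjusted by Benjamini-Hochberg in each of 17 comparisons. Fold changes are on this log2 scale and understate changes of low genes. The median SE over genes was 0.303, or 0.428 for an interaction. The script was tested on simulated data.

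The members and lists were chosen with earlier results of these data known. Besides the 9 members, named genes are the 3 nearest to each member by correlation, up to 4 of each list with the smallest p in bound RNA at day 2 and at day 7, further list genes as examples, and Havcr1. A few genes that this rule names are not reported here. Samples with the same number within a time come from the same homogenate, and their deviations within groups had r of 0.27 to 0.67 across genes (at most 0.31 with other numbers), so values with mouse blocks are given where they change a call. Alternatives were other pseudocounts (0.1 and 1), filters, scalings, blocks, fits of 1 fraction and each library left out.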

Additional observations from a re-analysis of the deposited data

Results flagged for a closer look

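Slc51b, the FXR-regulated subunit of the bile acid exporter, changed differently in bound and unbound RNA by the interaction of fraction and injury: the difference between the fractions' log2 changes was 1.92 at day 7 (95% interval 1.14 to 2.71, adjusted p = 0.0442, limma) and 1.98 at day 14 (1.19 to 2.76, adjusted p = 0.0379). At day 7 it averaged 88.7 ± 5.41 RPKM in bound and 92.9 ± 2.04 RPKM in unbound RNA, against 26.3 ± 2.56 RPKM in bound and 106 ± 7.24 RPKM in unbound RNA of sham mice (SD, n = 3 each). None of the 9 regulators met this test without mouse blocks. The fractions of Slc51b lay apart in sham kidneys, where most of the listed differentiation genes of the proximal tubule were also lower in bound RNA.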

How the results depend on the processing

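None of the members' values in the 17 comparisons reversed while called, and 62 of 153 had an opposite sign in some alternative in which, as in the values reported, they were not called. Leaving out 1 library at a time gave 0 to 4 members called in bound RNA at day 2 (2 as reported), 2 to 4 at day 7 (3), 1 to 4 at day 14 (2), 1 to 6 in bound against unbound RNA of sham mice (3), and 0 to 1 in the day 7 and day 14 interactions (0). Without the 3 libraries that stood apart, chosen after seeing the data, bound RNA had 6 members called at day 2, 5 at day 7 and 3 at day 14, and there were 2 in unbound RNA at day 2, 6 in bound against unbound RNA of sham mice, and 2 and 1 in the day 7 and day 14 interactions. Without both day 14 libraries of mouse 3 they were 1 in bound RNA at day 14, 1 in unbound RNA at day 2 (Hnf4a), and 1 in the day 7 and 1 in the day 14 interaction (Ppargc1a). Fitting only the libraries of 1 fraction gave 0 members in bound RNA at day 2, 2 at day 7, 0 at day 14 and 1 in unbound RNA at day 2. No filter, and no variance trend, each gave 1 in bound RNA at day 14. No filter also put Tfam in the place of Nr1h4 at day 2 and left out Ppara at day 7, and the filter on a mean of at least 5 RPKM added Tfam at day 2. A replicate block by mouse gave 6 members in bound against unbound RNA of sham mice, 1 at day 2, 1 at day 7 and 1 in the day 7 interaction. A replicate block by number, which joins libraries of unrelated mice (r of -0.37 to 0.37), gave 1 in unbound RNA at day 2, Hnf4a at an adjusted p of 0.0388, and added Esrra between the fractions of sham mice (0.0274). The blocks changed no other call of a member. The cause of these changes was not tested. Of the calls over all genes in bound RNA at day 2, 67.3% were higher, 47.0% once rescaled by median ratios and 50.7% with quantile normalization; at day 7 the shares were 66.8%, 45.9% and 49.2%, at day 14 65.5%, 41.3% and 46.0%, and in unbound RNA at day 2 66.0%, 51.3% and 50.5%. Over all alternatives the genes called in bound RNA numbered 1162 to 4556 at day 2 (2718 as reported), 1168 to 4793 at day 7 (3116) and 171 to 3584 at day 14 (1824), with the fewest in the fit of 1 fraction and the most without the 3 libraries. In unbound RNA they numbered 856 to 3672 (2030), 18 to 1202 (150) and 9 to 1271 (169), and for bound against unbound RNA 57 to 1304 at day 2 (230), 83 to 1563 at day 7 (323) and 51 to 359 at day 14 (112). The interactions gave 0 to 111 (0), 3 to 1406 (20) and 2 to 1810 genes (27). With 3 libraries a group, a log2 difference carried a median SE of 0.303 over all tested genes, so changes not well above that SE could not be detected reliably.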
